A study of Mus musculus with 8 samples.

Results

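*Plin2*, *Plin3*, *Plin4*, *Hilpda*, *Dgat1*, *Dgat2*, *Pnpla2*, *Lipe* and *Mgll*, 9 lipid droplet and triglyceride genes, were taken by gene name from a table of 53465 mouse genes. They were chosen by their CPM (counts scaled to a common library total) across the same 4 groups that are described here, so their differences between groups are given as descriptions and no p-value is given for any of them. Cells of the pancreatic ductal adenocarcinoma (PDAC) lines B73 and B87 were each measured once in every group by RNA-seq, which gave 8 libraries and 2 per group. Both lines were derived from primary pancreatic tumors of KC-shSmad4 mice, which carry *Ptf1a*-Cre, a *Rosa26* rtTA3-IRES-mKate2 allele and, at *Col1a1*, a doxycycline (Dox)-inducible shRNA against *Smad4*. Every group shared these alleles. Continuous Dox kept the cells Smad4 off, and 5 days without Dox made them Smad4 on. Each state was then exposed for 24 h to either 100 pM recombinant mouse TGFβ1 or 2.5 µM SB505124, a kinase inhibitor of the TGFβ type I receptor. Ptf1a-driven Cre acts in the pancreatic epithelium, so the alleles were active in cells of that lineage, and which shRNA each line carries is not given in the sources used here. *Smad4* state and the presence of Dox changed together and cannot be told apart, and the comparison of treatments is of added ligand with a blocked receptor, since no untreated group was analysed here.

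Triglycerides are stored in droplets that bud from the endoplasmic reticulum and are coated by perilipins. The diacylglycerol acyltransferases DGAT1 and DGAT2 make the final bond of a triglyceride, and the lipases PNPLA2 (ATGL), LIPE (hormone-sensitive lipase) and MGLL remove the fatty acids in sequence. Epithelial cells, including those of the pancreas, form small droplets, whereas the large droplets of fat cells depend on perilipin 1, which is not among the 9 genes.

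The targeted gene followed the labels. *Smad4* stood at 33.7 to 34.9 CPM in the Smad4-off libraries under SB505124, at 34.7 to 35.5 in those under TGFβ1, and at 97.4 to 117 CPM in the 4 Smad4-on libraries. Libraries held 18389235 to 23440550 counts, so that 3 counts, the floor used here, are 0.128 to 0.163 CPM. All 6 ductal markers were detected, with a summed level of 1203 to 5561 CPM, although *Epcam* reached only 0.153 to 2.11 CPM. None of 5 adipocyte markers exceeded 3 counts in any library, and *Lep* and *Plin1* were at 0 throughout. Endothelial markers summed to 7.24 to 26 CPM in Smad4-off cells under TGFβ1 and to 0.648 to 5.14 CPM in the other groups, chiefly through *Kdr*, and their part in the results was not tested. Summed fibroblast markers stayed at 2.7 to 6.61 CPM, macrophage markers at 1.33 to 6.34 CPM and acinar markers at 0.408 to 1.33 CPM. In bulk RNA, a change in the number of expressing cells and a change in the RNA per cell cannot be told apart.

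The promoters of the 3 perilipin genes and of *Lipe* are shown, because the perilipins lie close to each other in function and, for *Plin3* and *Plin4*, in the genome, and their levels differed between the treatments in different directions. Each window is RefSeq sequence (GRCm38.p6) from 250 bases before to 50 bases after the start of transcription, written 5′ to 3′ on the strand of the gene. Of the 9 genes, 7 matched the RefSeq table, with 10 windows in all. For description, 4 motifs were searched on both strands and stand in capitals: the SMAD palindrome GTCTAGAC, the shorter SMAD site CAGACA, the GC-rich SMAD motif GGCGCC and the hypoxia response core ACGTG. The palindrome CACGTG holds ACGTG on both strands. *Plin2* lies on the minus strand at chr4:86670010-86670309, *Plin3* at chr17:56290462-56290761, *Plin4* at chr17:56109733-56110032, and the first of the windows of *Lipe* at chr7:25395938-25396237, all on the minus strand.
Plin2: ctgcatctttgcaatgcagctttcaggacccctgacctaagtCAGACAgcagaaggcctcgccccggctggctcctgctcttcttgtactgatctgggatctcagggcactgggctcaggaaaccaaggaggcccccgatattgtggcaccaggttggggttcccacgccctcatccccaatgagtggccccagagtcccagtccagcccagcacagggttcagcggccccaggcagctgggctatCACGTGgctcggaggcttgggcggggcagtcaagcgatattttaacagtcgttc
Plin3: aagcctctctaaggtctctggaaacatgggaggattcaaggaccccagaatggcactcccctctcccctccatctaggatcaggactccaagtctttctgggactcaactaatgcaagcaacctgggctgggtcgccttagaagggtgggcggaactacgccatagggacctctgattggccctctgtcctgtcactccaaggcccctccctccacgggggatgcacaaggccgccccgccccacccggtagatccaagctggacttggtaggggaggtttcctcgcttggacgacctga
Plin4: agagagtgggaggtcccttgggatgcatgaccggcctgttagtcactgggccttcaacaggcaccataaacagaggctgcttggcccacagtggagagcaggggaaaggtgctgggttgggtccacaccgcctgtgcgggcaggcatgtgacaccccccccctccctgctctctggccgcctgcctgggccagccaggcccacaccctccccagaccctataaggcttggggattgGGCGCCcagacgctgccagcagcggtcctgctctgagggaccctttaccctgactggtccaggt
Lipe: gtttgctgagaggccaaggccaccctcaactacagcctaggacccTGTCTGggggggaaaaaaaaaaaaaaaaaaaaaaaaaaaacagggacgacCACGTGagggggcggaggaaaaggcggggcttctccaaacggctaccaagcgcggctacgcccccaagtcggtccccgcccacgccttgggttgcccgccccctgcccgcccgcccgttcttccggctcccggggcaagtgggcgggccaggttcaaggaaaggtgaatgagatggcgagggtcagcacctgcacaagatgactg
The *Plin2* window held CAGACA at bases 43 to 48 of the window and CACGTG at bases 247 to 252, across the start site. The first *Lipe* window held the same pair, with CAGACA on the opposite strand (bases 46 to 51) and CACGTG at bases 96 to 101. The other *Lipe* window (chr7:25390063-25390362), not shown, held none of the 4 motifs. *Plin4* held GGCGCC at bases 237 to 242, and the *Plin3* window held none of these letters. Among the 10 windows, CAGACA was found in 3, GGCGCC in 4, ACGTG in 5 and GTCTAGAC in 0, where 21%, 11.9%, 19.6% and 0.213% of 32851 mouse promoter windows of this length hold them. The windows of *Hilpda* overlap and share their GGCGCC. A match describes the letters only, and binding was not measured.

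*Plin2* (ENSMUSG00000028494; chromosome 4, 86648386 to 86670060, minus strand) encodes perilipin 2, the main droplet coat protein of cells other than fat cells. Its level in B73 was 112 CPM (Smad4 off) and 143 CPM (Smad4 on) under SB505124, and 349 and 926 CPM under TGFβ1. In B87 it was 100 and 132 CPM under SB505124, and 392 and 921 CPM under TGFβ1. All 4 groups were thus separate from each other, in the same order in both lines, and the lines differed by no more than 1.11-fold within the SB505124 groups. *Plin2* was the most abundant of the 9 mRNAs per length in all 4 TGFβ1 libraries.

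With TGFβ1 the mean *Plin2* level rose from 138 ± 7.86 to 924 ± 3.49 CPM (SD, n = 2) in Smad4-on cells, 6.71-fold, a log2 fold change of 2.75 ± 0.105 (SE). In Smad4-off cells it rose from 106 ± 8.1 to 370 ± 30.2 CPM (SD, n = 2), 3.5-fold, a log2 fold change of 1.81 ± 0.102 (SE). Restoring *Smad4* raised it 2.49-fold under TGFβ1, a log2 fold change of 1.32 ± 0.100 (SE), with 2.65-fold in B73 and 2.35-fold in B87. Under SB505124, where the receptor was blocked, the Smad4-on level stood 1.3-fold above Smad4 off, a log2 fold change of 0.38 ± 0.100 (SE) that was not past the threshold. The difference between the treatments in the *Smad4* effect was 0.94 ± 0.141 (SE, log2) and was also not past it. These 4 comparisons use the same 4 groups of libraries in pairs, so they are not independent of each other.

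**Figure D1:**
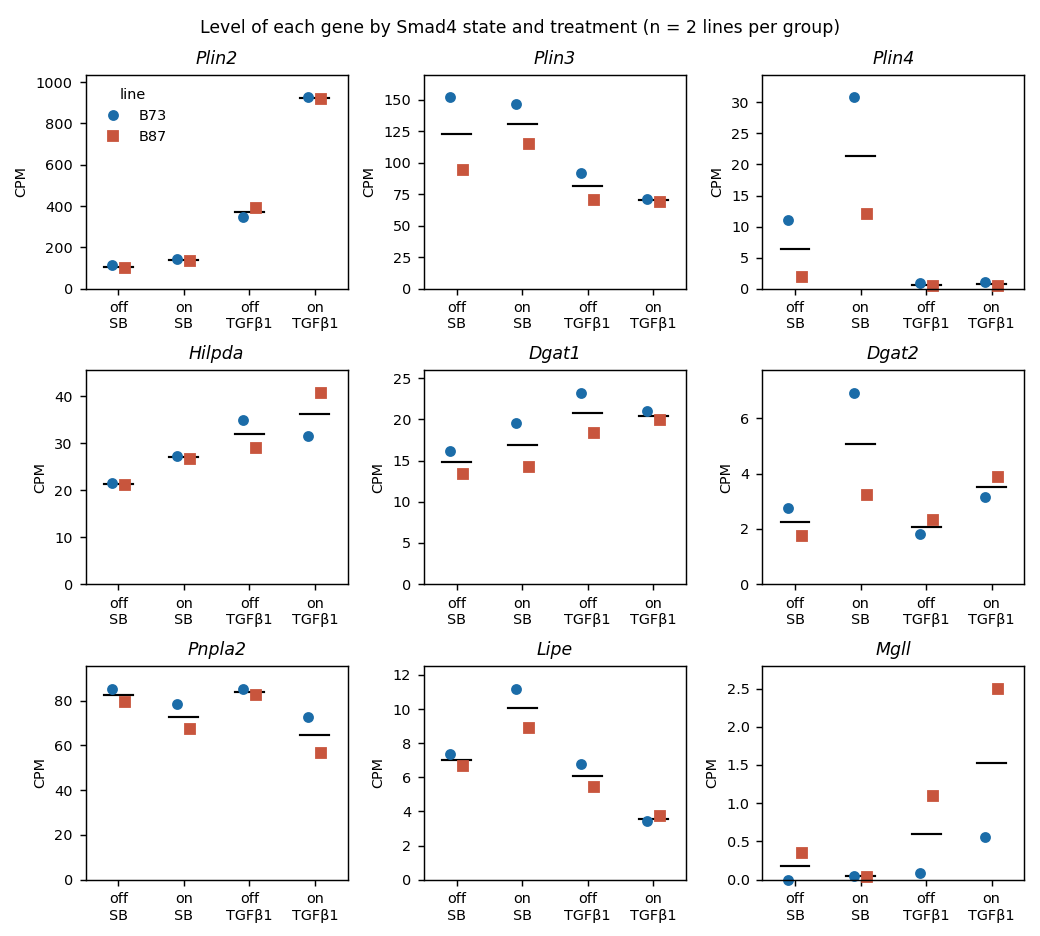
CPM (y axis, from 0, a scale for each gene) of the 9 genes under SB505124 (SB) or TGFβ1, with Smad4 off or on below each point, and blue circles for line B73, red squares for B87 and black bars for the mean of the 2 lines. *Plin2* climbs from 106 to 924 CPM from left to right, *Plin4* and *Lipe* are lowest under TGFβ1, and *Pnpla2* stays between 56.7 and 85.4 CPM.

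*Plin3* (ENSMUSG00000024197; chromosome 17, 56278962 to 56290511, minus strand) encodes perilipin 3, a widely expressed coat protein that moves between the cytosol and nascent droplets. In B73 it was measured at 152 CPM (Smad4 off) and 147 CPM (Smad4 on) under SB505124, and at 91.8 and 71.2 CPM under TGFβ1. In B87 the same groups gave 94 and 115 CPM, then 70.8 and 69.2 CPM. The TGFβ1 libraries lay below the SB505124 libraries in either *Smad4* state, whereas the *Smad4* states overlapped. The log2 fold change with TGFβ1 was −0.88 ± 0.143 (SE) in Smad4-on cells, 1.84-fold lower, and −0.58 ± 0.142 (SE) in Smad4-off cells. Between *Smad4* states it was −0.19 ± 0.143 (SE) under TGFβ1 and 0.11 ± 0.141 (SE) under SB505124.

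*Plin4* (ENSMUSG00000002831; chromosome 17, 56100591 to 56109803, minus strand), which lies 169 kb from *Plin3*, encodes the large repeat-rich perilipin 4 known from fat and muscle. In B73, 223 counts (11.1 CPM) were found in Smad4-off and 570 (30.8 CPM) in Smad4-on cells under SB505124, against 21 counts (0.9 CPM) and 20 counts (1.02 CPM) under TGFβ1. In B87, 41 counts (1.8 CPM) and 289 (12 CPM) were found under SB505124, against 8 (0.399 CPM) and 9 (0.459 CPM) under TGFβ1. The gene was thus highest in Smad4-on cells with the receptor blocked and close to the floor with TGFβ1 in either state. It passed the filter on low counts mainly through the SB505124 libraries. B73 held more *Plin4* than B87 in every group, by 6.18-fold in Smad4-off cells under SB505124 and by 2.22- to 2.56-fold in the other groups.

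With TGFβ1 *Plin4* was 29.7-fold lower in Smad4-on cells, a log2 fold change of −4.89 ± 0.409 (SE), at 27.7-fold in B73 and 21.9-fold in B87. In Smad4-off cells it was 8.67-fold lower (−3.12 ± 0.421, SE), and here the lines differed, at 11.3-fold in B73 and 3.84-fold in B87. Under SB505124 the Smad4-on level stood 3.95-fold above Smad4 off (log2 1.98 ± 0.321, SE), 2.75-fold in B73 and 6.39-fold in B87. Under TGFβ1 the log2 difference was 0.20 ± 0.527 (SE), between groups that overlapped. Of its exons, 17 bases overlap *Hdgfl2* on the opposite strand, and none of its 75-base stretches occurs in the transcripts of another gene.

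Levels can be compared between genes per kilobase of transcript, and on this scale *Plin2* took a larger share of the perilipin mRNA under TGFβ1 than under SB505124 in every pair of libraries. *Plin2* made up 30.6% (B73) and 39.4% (B87) of the summed level of *Plin2*, *Plin3* and *Plin4* in Smad4-off cells under SB505124, and 35.7% and 40.6% in Smad4-on cells. Under TGFβ1 its share was 70% and 77.2% in Smad4-off cells and 88.8% and 89.1% in Smad4-on cells. The summed level was 72.3 to 114 CPM per kb in the SB505124 libraries, 142 and 144 in Smad4-off cells under TGFβ1, and 297 and 294 in Smad4-on cells under TGFβ1. The ratio of *Plin2* to *Plin3* was 0.452 to 0.71 in the SB505124 libraries and 8 and 8.18 in the Smad4-on libraries with TGFβ1. These shares, summed levels and ratios rest on a *Plin3* length of 2159 bases in the deposited table. With the 3786 exonic bases of a later annotation (GENCODE M21), chosen after the data were seen, *Plin3* exceeded *Plin2* in the Smad4-off B73 library under SB505124 only (ratio 0.793), and the other SB505124 libraries gave 1.05 to 1.24. The ratios under TGFβ1 were then 4.1 to 14.3. The shares and summed levels were not recomputed with this length, under which the share of *Plin2* would be larger.

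**Figure D2:**
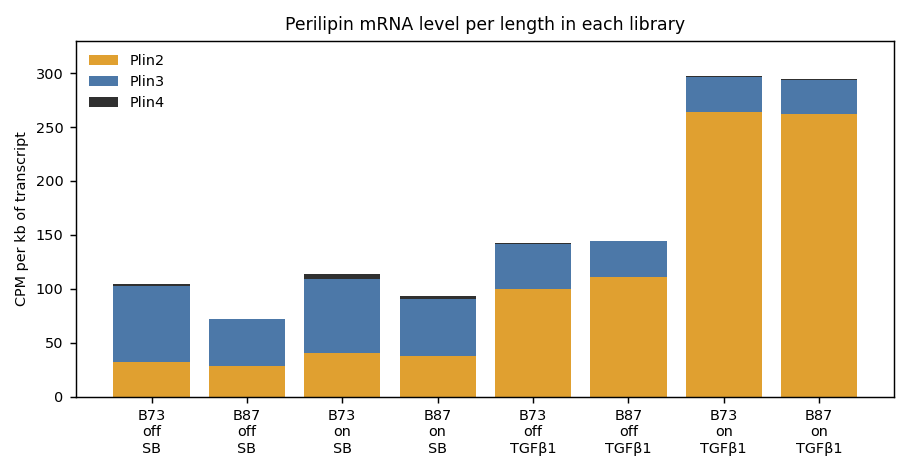
Stacked bars of *Plin2* (yellow), *Plin3* (blue) and *Plin4* (black) in CPM per kb of transcript (y axis, from 0) for each of the 8 libraries, ordered by treatment and Smad4 state. *Plin2* forms 30.6% to 40.6% of a bar under SB505124 and 70% to 89.1% under TGFβ1. These shares rest on the deposited *Plin3* length of 2159 bases and would be larger with a longer one.

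*Hilpda* (ENSMUSG00000043421; chromosome 6, 29272488 to 29275446, plus strand) encodes a small droplet protein that inhibits PNPLA2 and is known as a hypoxia-inducible gene. In B73 it was at 21.6 CPM (Smad4 off) and 27.3 CPM (Smad4 on) under SB505124 and at 34.9 and 31.6 CPM under TGFβ1. In B87 it was at 21.1 and 26.7 CPM, then at 29 and 40.7 CPM. All TGFβ1 libraries lay above all SB505124 libraries, by a log2 fold change of 0.42 ± 0.154 (SE) in Smad4-on and 0.58 ± 0.155 (SE) in Smad4-off cells. Under TGFβ1 the *Smad4* effect had opposite signs in the lines, −0.14 in B73 and 0.49 in B87 (log2). Per length, *Hilpda* was among the 4 most abundant of the 9 mRNAs in every library, at 19.4 ± 0.31 to 32.8 ± 5.83 CPM per kb (mean ± SD of a group, n = 2).

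*Dgat1* (ENSMUSG00000022555; chromosome 15, 76502015 to 76511951, minus strand) and *Dgat2* (ENSMUSG00000030747; chromosome 7, 99153658 to 99182719, minus strand) encode unrelated enzymes that catalyse the same last step of triglyceride synthesis. *Dgat1* was measured at 13.4 to 19.5 CPM in the SB505124 libraries and at 18.4 to 23.2 CPM in the TGFβ1 libraries. The log2 fold change with TGFβ1 was 0.30 ± 0.133 (SE) in Smad4-on and 0.49 ± 0.133 (SE) in Smad4-off cells, in both of which the groups did not overlap. Between *Smad4* states *Dgat1* differed by no more than 0.18 ± 0.134 (SE, log2), with overlapping groups.

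*Dgat2* was low. In B73 it was at 2.75 CPM (Smad4 off) and 6.92 CPM (Smad4 on) under SB505124, and at 1.8 and 3.16 CPM under TGFβ1, whereas B87 gave 1.76 and 3.24 CPM, then 2.34 and 3.87 CPM. Smad4-on libraries lay above Smad4-off libraries under both treatments, by log2 fold changes of 1.15 ± 0.395 (SE) under SB505124 and 0.77 ± 0.405 (SE) under TGFβ1. With TGFβ1 the level was lower in B73 and higher in B87, by log2 differences of −1.11 and 0.25 in Smad4-on cells and of −0.58 and 0.40 in Smad4-off cells. Per length, *Dgat1* exceeded *Dgat2* in every library, by 2.84-fold to 13-fold.

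*Pnpla2* (ENSMUSG00000025509; chromosome 7, 141455198 to 141460743, plus strand) encodes ATGL, the lipase that takes the first fatty acid from a triglyceride. Its range across group means, 0.39 on the log2 scale, was the smallest of the 9 genes, where *Plin4* had 4.79, *Mgll* 3.19 and *Plin2* 3.13. Under SB505124 it was at 85.4 and 78.6 CPM in B73 and at 79.2 and 67.2 CPM in B87 (Smad4 off, then on), and under TGFβ1 at 85.2 and 72.6 CPM in B73 and at 82.4 and 56.7 CPM in B87. Smad4-on libraries lay below Smad4-off libraries in both treatments, by log2 fold changes of −0.38 ± 0.097 (SE) under TGFβ1 and −0.18 ± 0.097 (SE) under SB505124. The threshold was not passed in any comparison.

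*Lipe* (ENSMUSG00000003123; chromosome 7, 25379527 to 25398710, minus strand) encodes hormone-sensitive lipase, which acts chiefly on diacylglycerol. In B73 it was at 7.34 CPM (Smad4 off) and 11.2 CPM (Smad4 on) under SB505124, and at 6.77 and 3.42 CPM under TGFβ1. In B87 it was at 6.68 and 8.9 CPM, then at 5.43 and 3.72 CPM. *Smad4* restoration thus went with a higher level when the receptor was blocked and a lower level with ligand, in both lines. The log2 fold changes were 0.51 ± 0.184 (SE) under SB505124 and −0.76 ± 0.196 (SE) under TGFβ1, a difference of −1.27 ± 0.268 (SE). TGFβ1 lowered *Lipe* 2.79-fold in Smad4-on cells (log2 −1.48 ± 0.193, SE), while in Smad4-off cells the log2 difference was −0.20 ± 0.187 (SE), between groups that overlapped. *Lipe* shares 918 exonic bases with the antisense gene *4732471J01Rik*, which had 10 to 38 counts, and 8.7% of its 75-base stretches occur in another transcript. Whether counting used the strand is not given in the sources used here.

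*Mgll* (ENSMUSG00000033174; chromosome 6, 88724412 to 88828360, plus strand) encodes the lipase that releases the last fatty acid. In B73 it had 0 (Smad4 off) and 1 (Smad4 on) counts with SB505124 and 2 and 11 with TGFβ1, against 8 and 1, then 22 and 49, in B87. It was at or under the floor in 4 of the 8 libraries and passed the filter only through its TGFβ1 libraries. Over both lines, TGFβ1 gave 32.5 times the SB505124 level in Smad4-on cells (60 against 2 counts, exact 95% counting interval 8.62 to 275) and 2.96 times in Smad4-off cells (24 against 8 counts, 1.28 to 7.61). Under TGFβ1, Smad4-on cells held 2.77 times the Smad4-off level (1.7 to 4.65). The groups overlapped in this comparison, with Smad4-on B73 at 0.561 CPM and Smad4-off B87 at 1.1 CPM. They also overlapped for TGFβ1 in Smad4-off cells, where B73 had 2 against 0 counts. The intervals cover counting error only, so they are no test of a difference between groups. Most of these counts came from B87, where the first ratio was 60 (interval 10.3 to 2419), against 10.4 (1.51 to 447) in B73.

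**Figure D3:**
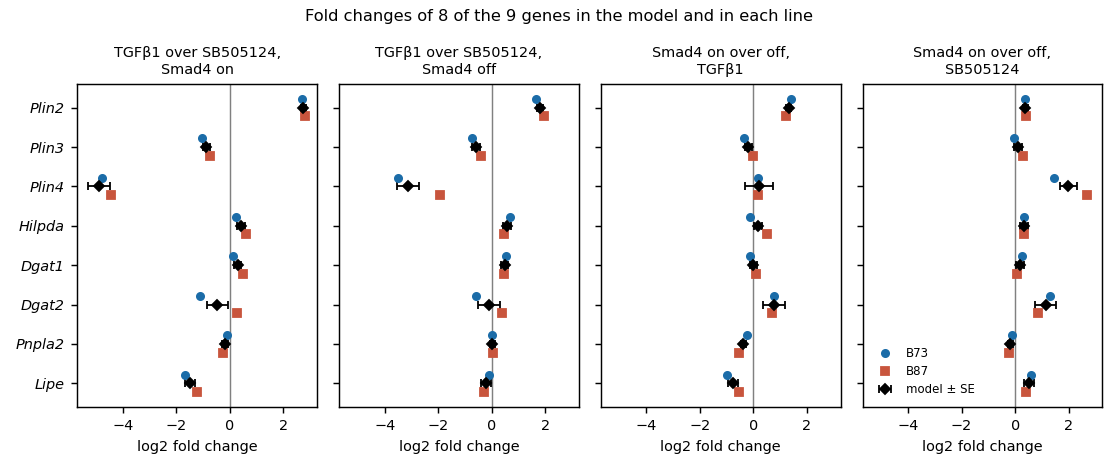
Log2 fold change (x axis) of 8 of the 9 genes in the 4 comparisons, with the model estimate ± SE (black diamonds) and the fold in B73 (blue circles) and B87 (red squares). *Mgll* is left out because its fitted fold rests on libraries at 0 to 2 counts. *Plin2* lies right of 0 in all 4 panels, and *Lipe* lies right of 0 only when *Smad4* states are compared under SB505124.

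Counted by the threshold used for all genes (edgeR quasi-likelihood test with the line in the model, Benjamini-Hochberg adjusted p under 0.05), the 9 genes spread over both directions. With TGFβ1 in Smad4-on cells, *Plin2* and *Mgll* were past it as higher and *Plin3*, *Plin4* and *Lipe* as lower. *Mgll* passed the filter on low counts only through its TGFβ1 libraries, so its place here carries no weight. Of all 14301 genes tested, 15.6% were called higher and 17.6% lower in that comparison. With TGFβ1 in Smad4-off cells 1 was past it as higher (*Plin2*) and 2 as lower (*Plin3* and *Plin4*), where 6.96% and 6.24% of all genes were called. For *Smad4* under TGFβ1 only *Plin2* was past it as higher, beside 3.52% of genes called higher and 3.28% lower. For *Smad4* under SB505124 only *Plin4* was past it as higher, beside 0.972% and 0.622%. In the interaction of *Smad4* with treatment 0 of the 9 were past it with edgeR, 4 had an unadjusted p under 0.05, DESeq2 with the line had 1, and the shares over all genes were 0.0559% higher and 0.140% lower. Because the genes were selected on these contrasts, nothing is read from the counts. Without the line in the model (no replicate block) the numbers past the threshold in the same order were 3, 1, 1 and 0, *Plin3* and *Mgll* being no longer past it in Smad4-on cells. *Plin4* under SB505124 was also not past it in a fit of only the 4 libraries compared. The groups did not overlap for 7 of the 9 genes with TGFβ1 in Smad4-on cells, for 5 in Smad4-off cells, and for 4 and 6 between *Smad4* states under TGFβ1 and SB505124, and for 58.3%, 49.4%, 44.8% and 31.4% of all tested genes in the same order. The median log2 fold change of the 9 was −0.18, 0.03, 0.18 and 0.34 in these 4 comparisons and −0.32, −0.03, 0.08 and 0.36 without *Mgll*, where the median of all tested genes lay between −0.019 and 0.003.

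The genes with the most similar pattern were sought for the 3 of the 9 with the widest range, by the root mean square difference of log2 CPM, each centred on its own mean, over the 8 libraries. For *Plin2* they were *Smad7* (0.13), the inhibitory SMAD induced by TGFβ, *Skap1* (0.20) and *Fam214b* (0.21). *Smad7* was at 17.8 and 18.9 CPM in Smad4-off and 30.2 and 25.1 CPM in Smad4-on cells under SB505124 (B73, then B87), and at 67.2 and 72.9, then 153 and 155 CPM, under TGFβ1. Its 4 groups thus fell in the order of those of *Plin2*. For *Plin4* they were *Atp8b1* (0.39), a phospholipid flippase, *Hal* (0.41) and *Gal3st1* (0.56). For *Mgll* they were *Gm42635* (0.56), *Slc16a3* (0.58), a lactate transporter, and *Oacyl* (0.66). *Gm42635*, *Oacyl*, *Hal*, *Gal3st1* and *Skap1* were themselves under the floor in some libraries. *Skap1* was at 0.0998 (B73) and 0.0879 CPM (B87) in Smad4-off cells under SB505124. The likeness is a description over 8 libraries that share 2 lines and 2 treatments.

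**Figure D4:**
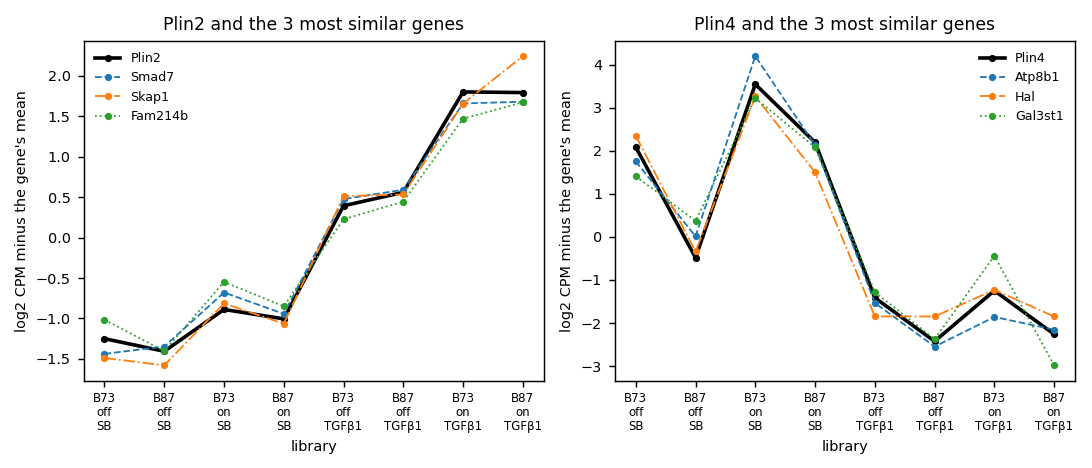
Log2 CPM minus the mean of each gene (y axis) in the 8 libraries (x axis) for *Plin2* and *Plin4* (black) and the 3 most similar genes of each, with lines drawn to guide the eye. *Smad7* differs from *Plin2* by 0.13 and *Atp8b1* from *Plin4* by 0.39 on average (root mean square).

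The other genes of lipid handling were taken as 7 lists of 96 genes, of which 75 passed the filter on low counts. Those under it included *Plin1*, *Fitm1*, *Mogat1* and the ATGL inhibitor *G0s2*, all at 0 counts, *Plin5* at no more than 22 counts, and the fatty acid importer *Cd36* at no more than 1. With TGFβ1 in Smad4-on cells 13 of the 75 rose and 24 fell by the edgeR test, and in Smad4-off cells 9 rose and 9 fell. *Smad4* restoration raised 7 and lowered 7 under TGFβ1, and raised 2 and lowered 1 under SB505124. Passing in either direction were thus 49.3%, 24%, 18.7% and 4% of the 75 in these comparisons, beside 33.2%, 13.2%, 6.80% and 1.59% of all tested genes, and in the interaction 2 of the 75, beside 0.196%. No test of these differences in share was made. The lists were chosen with earlier results of these data known, and nothing particular to a list is read from its counts. With no replicate block the numbers raised and lowered became 7 and 13, 1 and 1, 2 and 0, and 0 and 0, the last with 6 genes at an unadjusted p under 0.05. Of the genes named below, *Fitm2*, *Lpin3*, *Agpat2*, *Lipa*, *Ddhd2*, *Acsl1*, *Acsl5*, *Pparg*, *Ppargc1a*, *Cpt1a*, *Ppard*, *Vegfa*, *Ndrg1* and *Ankrd37* kept their call with TGFβ1 in Smad4-on cells without the block. *Acsl1* and *Vegfa* kept theirs in Smad4-off cells, *Vegfa* and *Ndrg1* kept theirs for *Smad4* under TGFβ1, and the other calls below were lost. The calls of *Cidec*, *Lpl* and *Cpt1b* are left out of this comparison, although they stand among the 13 that rose and 24 that fell. Each of these genes passed the filter only through libraries of the treatment under which it was high. The median log2 fold change of the 75 was −0.11, 0.01, −0.10 and 0.05 in the same order.

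Among genes of droplet coat and assembly, 3 of 8 tested fell with TGFβ1 in Smad4-on cells, where 17.6% of all tested genes fell and 15.6% rose, and the rest did not pass. *Cidec*, which encodes a droplet fusion protein, had 61 (B73) and 19 (B87) counts in Smad4-on cells under SB505124 and 0 in both libraries under TGFβ1. Set at a floor of 3 counts per library, the TGFβ1 level was at least 12.3-fold lower, at least 21.5-fold in B73 and at least 5.17-fold in B87. Taken from the 0 counts without that floor, the exact 95% counting interval began at 19.5-fold lower over both lines, 17-fold in B73 and 3.81-fold in B87. *Cidec* passed the filter on low counts only through these SB505124 libraries, so that its place among the 3 carries no weight and no p-value is given. *Bscl2*, which encodes the droplet assembly protein seipin, fell 2.05-fold (log2 −1.04 ± 0.138, SE, edgeR adjusted p 0.00192). *Fitm2*, needed for droplet budding, fell 1.39-fold (adjusted p 0.00553) and was 1.63-fold higher in Smad4-on than Smad4-off cells under SB505124 (adjusted p 0.0127). The last call was also lost in a fit of only the 4 libraries compared.

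In the list of glycerolipid and sterol acylation, 2 of 14 rose and 5 fell with TGFβ1 in Smad4-on cells, beside 15.6% and 17.6% of all tested genes. *Lpin3*, which encodes a phosphatidate phosphatase upstream of the DGAT enzymes, was at 4.11 and 2 CPM in Smad4-on cells under SB505124 (B73, then B87) and at 25.9 and 18.2 CPM under TGFβ1. It rose 7.41-fold there (log2 2.89 ± 0.279, SE, edgeR adjusted p 0.000539) and 2.46-fold in Smad4-off cells (adjusted p 0.0286). Restoring *Smad4* raised it 3.46-fold under TGFβ1 (log2 1.79 ± 0.261, SE, adjusted p 0.012), and under SB505124 the log2 difference was 0.20 ± 0.298 (SE). Its relative *Lpin1* moved the other way with *Smad4* under TGFβ1, 2.46-fold lower (adjusted p 0.0355). The acyltransferase gene *Agpat2* fell 2.1-fold with TGFβ1 in Smad4-on cells (adjusted p 0.000362), and *Soat2*, which esterifies cholesterol, fell 5.26-fold (adjusted p 0.00357).

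Of the other lipolysis genes, 3 of 7 tested fell with TGFβ1 in Smad4-on cells, beside 17.6% of all tested genes. *Lipa*, the lysosomal acid lipase, fell 3.66-fold in Smad4-on cells (log2 −1.87 ± 0.245, SE, edgeR adjusted p 0.00177) and 2.2-fold in Smad4-off cells (adjusted p 0.0257). *Lpl*, the lipase that frees fatty acids outside the cell, had 42 and 15 counts in Smad4-on cells under SB505124 and 6 and 1 under TGFβ1, 7.51-fold lower over both lines (exact 95% counting interval 3.42 to 19.5). It too passed the filter only through its Smad4-on libraries under SB505124. Its place among the 3 thus carries no weight, and no p-value is given for it. *Ddhd2* fell 1.33-fold (adjusted p 0.0113). For uptake and activation, 1 of 9 rose and 3 fell in the same comparison, beside 15.6% and 17.6% of all tested genes. The acyl-CoA synthetase genes *Acsl1* and *Acsl5* fell 2.09-fold (adjusted p 0.00107) and 1.7-fold (adjusted p 0.00335), whereas *Acsl4* rose 1.48-fold (adjusted p 0.0335), and the transporter gene *Slc27a4* fell 1.51-fold (adjusted p 0.0112).

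Of the fatty acid synthesis genes, 3 of 11 tested fell with *Smad4* restoration under TGFβ1, where 3.28% of all tested genes fell, and the rest did not pass. *Fads2* (2.12-fold, edgeR adjusted p 0.00387), *Scd1* (1.96-fold, adjusted p 0.019) and *Elovl6* (1.7-fold, adjusted p 0.00943), which encode desaturases and an elongase, were lower in Smad4-on cells. The *Scd1* groups overlapped, at 410 and 184 CPM (Smad4 off, then on) in B73 and 161 and 93.3 CPM in B87. With TGFβ1 in Smad4-on cells 1 of the 11 rose and 4 fell, beside 15.6% and 17.6% of all tested genes. Among those that fell was *Me1*, which supplies NADPH (1.8-fold, adjusted p 0.000542). The *Me1* groups overlapped, at 142 and 75.7 CPM (SB505124, then TGFβ1) in B73 and 74.7 and 43.5 CPM in B87.

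Of the fatty acid oxidation and PPAR genes, 2 of 14 rose and 5 fell with TGFβ1 in Smad4-on cells, beside 15.6% and 17.6% of all tested genes. In Smad4-off cells 1 rose and 4 fell, beside 6.96% and 6.24%. *Cpt1b*, 1 of the 2 that rose, passed the filter on low counts only through TGFβ1 libraries, so its place carries no weight. *Pparg*, a nuclear receptor that drives fat storage genes, was at 152 and 91.9 CPM in Smad4-on cells under SB505124 and at 16.3 and 9.79 CPM under TGFβ1 (B73, then B87). It fell 9.42-fold (log2 −3.24 ± 0.172, SE, edgeR adjusted p 8.71e-05), and 3.31-fold in Smad4-off cells (adjusted p 0.00159). *Ppargc1a*, its coactivator, fell 8.74-fold in Smad4-on cells (adjusted p 0.00111), and *Cpt1a*, which admits fatty acids to mitochondria, fell 5.48-fold (adjusted p 0.000195). *Ppard*, named after its values were seen, rose 3.21-fold with TGFβ1 in Smad4-on cells (log2 1.68 ± 0.139, SE, adjusted p 0.000292) and 1.7-fold in Smad4-off cells (adjusted p 0.0148).

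*Angptl4*, which encodes an inhibitor of lipoprotein lipase, was lower in Smad4-on cells under both treatments. It was at 95.9 and 101 CPM in Smad4-off and 23.5 and 6.32 CPM in Smad4-on cells under SB505124 (B73, then B87), and at 222 and 281, then 17.7 and 8.21 CPM, under TGFβ1. Smad4-on cells were 20.8-fold lower under TGFβ1 (log2 −4.38 ± 0.524, SE, edgeR adjusted p 0.00652), 12.5-fold in B73 and 33.8-fold in B87. Under SB505124 they were 7.3-fold lower (adjusted p 0.0474), 4.08-fold in B73 and 15.7-fold in B87, and that call was also lost in a fit of the 4 libraries alone and with at least 10 counts required in every library.

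The HIF-responsive genes were listed because *Hilpda* and *Plin2* are known to respond to hypoxia. Of 12 tested, 7 rose and 1 fell with TGFβ1 in Smad4-on cells, beside 15.6% and 17.6% of all tested genes. In Smad4-off cells 4 rose with none called lower, beside 6.96% and 6.24%. The median log2 fold change of the 12 was 0.98 and 0.22, beside −0.019 and −0.017 over all genes. *Vegfa* rose 4.64-fold in Smad4-on cells (log2 2.22 ± 0.093, SE, edgeR adjusted p 3.86e-05) and 1.79-fold in Smad4-off cells (adjusted p 0.00244). The *Smad4* effect on *Vegfa* was larger under TGFβ1 than under SB505124 by 1.38 ± 0.127 (SE, log2, adjusted p 0.0206), and on *Ndrg1* by 1.13 ± 0.138 (adjusted p 0.0471), although neither interaction passed with no replicate block. *Ankrd37* rose 4.68-fold (adjusted p 0.00172) and *Bnip3* 3.67-fold (adjusted p 0.00753) with TGFβ1 in Smad4-on cells. *Hilpda* itself stood 1.34-fold higher in that comparison, as given above, and was not past the threshold. The *Smad4* and TGFβ1 comparisons of all lists share libraries.

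**Figure D5:**
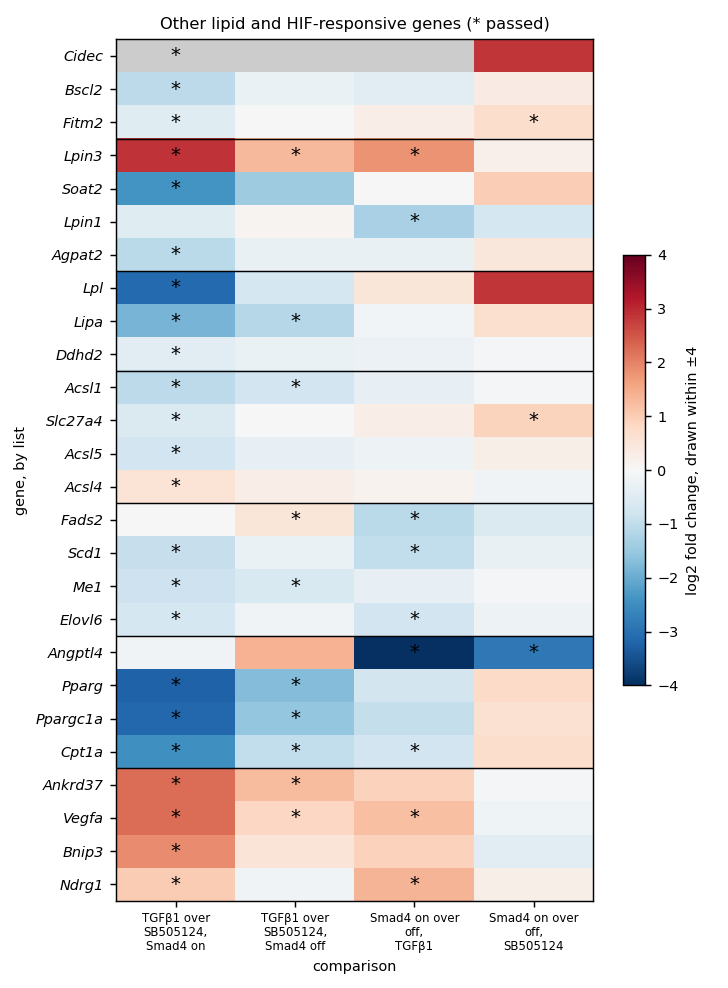
Log2 fold change (colour, red higher and blue lower, drawn within ±4) of the named genes of the 7 lists (rows, separated by lines) in the 4 comparisons (columns), with an asterisk where the edgeR adjusted p was under 0.05. *Cidec* and *Lpl* passed the filter on low counts only through Smad4-on cells under SB505124, so their asterisks carry no weight. *Cidec* is grey where a group was at 0 or 1 count. *Pparg* and *Cpt1a* are blue in both TGFβ1 columns, and *Vegfa* and *Ankrd37* are red in both.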

How the data were processed

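Poly(A) RNA of 8 cultures (4 groups, 1 library of each of 2 lines) had been sequenced by the authors from stranded libraries as single-end reads of 75 bp. Per the submitters' processing notes, FastQC 0.11.5, Trimmomatic 0.36, STAR 2.5.3a and featureCounts 1.6.3 were used with GRCm38 (mm10). The authors deposited raw counts per gene, with no normalization and no pooling, and the strand setting of counting is not given in the sources used here. Totals and the floor they set are given with the results. An item of the mouse genotype is not reported here.

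The 9 genes and all lists were chosen with earlier results of these data known. Counts were analysed in R 4.3.3 with edgeR 4.0.16 (TMM, filterByExpr, 14301 genes kept, quasi-likelihood F-test, Benjamini-Hochberg adjustment over all genes kept) in 1 model of the 4 groups and the line over all 8 libraries. The study used DESeq2 and also asked for a fold above 2, and here a gene was called at an adjusted p under 0.05. CPM are scaled by TMM. For folds per line, a prior count of 2 was added before the log2. Each SE is the log2 fold change over the square root of F. Each line passed through all groups, and what set a line apart from its group mean recurred in the other groups (r = 0.642 to 0.774, median 0.758, over 6 pairs of groups), so the line was used as a block. The p-values rest on the spread left after the group and the line were fitted. With 1 library of each line per group, that spread is how far group differences varied between the 2 lines. No source says whether the libraries were separate cultures grown at separate times, so this spread may be partly technical.

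As alternatives, edgeR was rerun without the line, with the size factors of DESeq2, on unfiltered genes, on genes with 10 or more counts everywhere, on only the 4 libraries compared and with a required fold above 2. DESeq2 1.42.0 was run both ways as to the line, and folds were taken in each line alone. Named list genes were the up to 4 per list with the largest fold among those called in any pairwise comparison, and similar genes the 3 nearest to each of the 3 genes with the widest range. The scripts were tested on simulated data. Floors and counting intervals cover counting error only.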

Additional observations from a re-analysis of the deposited data

Results flagged for a closer look

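Among the 9 genes, *Lipe* and *Dgat2* differed in opposite directions between settings. The *Smad4* effect on *Lipe* under TGFβ1 minus that under SB505124 was −1.27 (log2), lower with ligand and higher with the receptor blocked in both lines, and this difference was not past the threshold in the edgeR test of the interaction. For *Dgat2*, the mean effect of TGFβ1 in B73 minus that in B87 was −1.17 (log2), with a lower level in B73 and a higher one in B87 in either *Smad4* state, a difference between lines that was not tested.

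Of the 75 list genes tested, 16 had *Smad4* effects of opposite sign under the 2 treatments in both lines, and 1 of these passed the test of the interaction. The share of all tested genes with such signs was not taken, so nothing about the lists is read from this count. Among the list genes named above, 6 had a *Smad4* effect that was positive in both lines under SB505124 and negative in both lines under TGFβ1, without a call in the test of that difference. The differences (TGFβ1 minus SB505124, log2) were −1.58 for *Ppargc1a*, −1.51 for *Pparg*, −1.47 for *Cpt1a*, −0.76 for *Agpat2*, −0.75 for *Bscl2* and −0.44 for *Acsl5*. For *Acsl5* the effect under SB505124 was 0.46 in B73 but only 0.02 in B87 (log2), so its sign in B87 carries no weight. For *Vegfa* (1.38) and *Ndrg1* (1.13) the difference passed the edgeR test, with adjusted p-values of 0.0206 and 0.0471.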

How the results depend on the processing

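Counts of list genes that passed and of the 9 genes past the threshold were recomputed under 78 alternatives in all, of which 46 stayed within 1.5 times, and the causes of the other changes were not tested. Leaving out the line (no replicate block) moved most of the counts of list genes: to 2 from 14 (*Smad4*, TGFβ1), 0 from 3 (*Smad4*, SB505124, with 6 at an unadjusted p under 0.05), 20 from 37 (TGFβ1, Smad4 on), 2 from 18 (TGFβ1, Smad4 off) and 0 from 2 (interaction, with 12 at an unadjusted p under 0.05). In DESeq2 with no block the counts for *Smad4* under TGFβ1 and for TGFβ1 in Smad4-off cells were both 8, and with a fold above 2 the 4 pairwise counts were 8, 1, 18 and 5. For *Smad4* under SB505124 no filter on low counts gave 14, DESeq2 with the line 9, and the 4 libraries alone 0 (18 unadjusted), and for the interaction no filter gave 11 and DESeq2 with the line 8.

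Of the 9 genes, the numbers past the threshold with no filter were 3, 3, 5 and 2 for *Smad4* under TGFβ1, *Smad4* under SB505124, TGFβ1 in Smad4-off cells and the interaction. DESeq2 with the line gave 2, 2 and 1 for both *Smad4* comparisons and the interaction, where DESeq2 with no block gave 1 for the interaction. For *Smad4* under SB505124 it was 0 with at least 10 counts in every library, with no replicate block, in DESeq2 with no block and in the 4 libraries alone, with 3, 2, 2 and 5 at an unadjusted p under 0.05. For TGFβ1 in Smad4-on cells it was 3 with at least 10 counts in every library, where 7 of the 9 could be tested, and 3 with no replicate block. For TGFβ1 in Smad4-off cells it was 1 with no replicate block and 5 in the 4 libraries alone. *Plin2* was past the threshold in its 3 comparisons under all 8 alternatives. These reuse the libraries and comparisons on which the gene was chosen, so they show only how the call depends on processing. DESeq2 size factors moved the median of all genes by at most 0.011 (log2). With 2 lines, each line alone gives a fold and no test, and genes under the floor cannot be ranked at this depth.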
